A study of Mus musculus with 6 samples.

Results

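The collagen chain genes were the protein-coding genes whose symbols name a collagen chain (Col, a type number, the letter a and a chain number), and 42 of the 22386 genes listed met that rule. They were read by RNA-seq of total RNA in MC38, a tumour line from mouse colon, in 6 libraries of which 3 carried a control short hairpin RNA (shControl, genotype given as WT) and 3 a short hairpin RNA against Acsl4 (shACSL4, genotype given as a knockdown). All libraries came from the same line in the same growth medium, and the comparison asks how lowering Acsl4, which encodes an enzyme that activates long polyunsaturated fatty acids, is reflected in the RNA of these tumour cells. The series text calls the cells knockouts, the number of hairpins or clones behind a group was not given in the sources used here, and nothing states that replicates were separate cultures, so p-values measure only the spread between these libraries. Values of single libraries are given in the order of replicates 1 to 3.

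Collagens are secreted or membrane proteins in which chains wind around each other into a trimeric helix made of repeats that begin with glycine. Fibrillar collagens (types I, II, III, V, XI, XXIV and XXVII) form the cables of connective tissue, type IV forms the mesh of basement membranes, and type VI forms beaded microfibrils next to cells. The remaining types include chains that sit on fibril surfaces (the fibril-associated or FACIT collagens), the anchoring fibrils of type VII, and collagens that span the cell membrane. In tumours most interstitial collagen is generally attributed to fibroblasts, with carcinoma cells contributing basement membrane chains.

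Library totals lay between 40911698 and 47127672 counts, and 14289 genes had enough counts to be tested. The hairpin's target Acsl4 was at 191.1, 194 and 204 CPM (TMM-scaled counts relative to library size) in shControl and 132, 128 and 127 CPM in shACSL4, 0.656 of the control (-0.61 on the log2 scale with SE 0.0517, adjusted p = 3.84e-06 by edgeR's quasi-likelihood test over all tested genes). Mitochondrial transcripts held 3.79 to 6.31% of counts and ribosomal protein genes 2.71 to 3.96%, and shControl 3 was nearer to the shACSL4 libraries than to the other controls in both. The markers of epithelium were at or near 0 against the cell type label: the 10 genes of the list of 12 that were in the table summed to 1.88 to 2.23 CPM in shControl and 2.38 to 3.69 in shACSL4, with Cdh1, the gene of E-cadherin, at 0.0317 and 0.0316 CPM and Krt20 as the 1 gene that rose. The 10 fibroblast markers summed to 794 to 902 CPM in shControl and 786 to 956 CPM in shACSL4. Of these, 3 rose (Pdgfra, Pdgfrb and Ly6c1) and 2 fell (Dcn and Postn). Most of the sum came from Dcn (668 and 523 CPM in the group means) and Pdgfra (122.5 and 263.7 CPM). Fap, Pi16 and Postn were under 1 CPM in both group means, and Thy1 was at 0.0162 and 0 CPM. Endothelial markers summed to 0.629 to 1.33 CPM in all libraries, and the leukocyte gene Ptprc was at 0.0158 and 0.0618 CPM. Muscle and pericyte markers summed to 88.0 to 94.0 CPM in shControl and 70.9 to 72.7 CPM in shACSL4, nearly all from Cspg4, which fell, and leukocyte markers to 5.92 to 7.65 and 9.37 to 9.74 CPM, of which Lyz2 rose. The part of these shifts in the collagen results was not tested.

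Of the 42 collagen genes, 25 were tested, 8 rose, 2 fell and 15 did not pass the threshold. At adjusted p under 0.05, 29.1% of all tested genes were called, 15.4% higher and 13.6% lower, so the 10 called collagens (40% of those tested) stood above the background share, a difference that was not tested. Among the 10, Col9a1 entered the test only because it was higher in shACSL4. By group the share was 44.4% for fibrillar, 0% for basement membrane, 75% for microfibrillar and 33.3% for other collagens, with 3 to 9 tested genes in each. The rising genes were Col3a1, Col5a2, Col5a3 and Col11a1 among the fibrillar chains, Col6a1 and Col6a2 among the microfibrillar chains, and the fibril-associated chains Col9a1 and Col12a1. The falling genes were Col6a3, the long chain of type VI, and Col7a1, the chain of anchoring fibrils. The median log2 fold change of the tested collagens was 0.38, beside -0.01 over all tested genes, and it was 0.12 without shControl 2. The groups did not overlap for 11 tested collagens (8 above the controls, 3 below), where 42.8% of all tested genes did not overlap (22% above, 20.8% below). In bulk RNA, fewer cells that express a gene and less of its RNA per cell cannot be told apart.

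The bases upstream of an annotated start are shown for the most abundant chain (Col3a1), for the 3 chains of type VI, which moved in opposite directions, and for the chain with the largest fall (Col7a1). They are RefSeq sequence of the GRCm38.p6 build, on the gene's own strand, whereas coordinates of genes elsewhere in the text are GRCm39 as in the deposited table. Capitals mark exact matches to any of 6 motifs searched on both strands in the 250 bases before the start: the TATA box spelled TATAAA, the CCAAT box as in its name, the GC box read as GGGCGG, the binding site of the AP-1 factors read as TGANTCA, the interferon gamma activated sequence read as TTCNNNGAA and the core of an interferon-stimulated response element. The stretches are chr1:45311288-45311537 on the plus strand for Col3a1, chr10:76726169-76726294 on the minus strand for Col6a1, chr10:76623631-76623880 on the minus strand for Col6a2, chr1:90843972-90844221 on the minus strand for Col6a3 and chr9:108953336-108953585 on the plus strand for Col7a1. The last 124 bases before the Col6a1 start overlap an exon in GENCODE M21 and were left off. The Col6a3 stretch overlaps the span that RefSeq gives to Col6a3 itself, so it need not lie upstream of the whole gene.
Col3a1: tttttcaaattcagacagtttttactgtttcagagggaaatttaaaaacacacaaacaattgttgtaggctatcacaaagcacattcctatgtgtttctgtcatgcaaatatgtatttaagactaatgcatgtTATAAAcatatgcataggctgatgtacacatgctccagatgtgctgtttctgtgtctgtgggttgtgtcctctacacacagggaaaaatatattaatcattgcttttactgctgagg
Col6a1: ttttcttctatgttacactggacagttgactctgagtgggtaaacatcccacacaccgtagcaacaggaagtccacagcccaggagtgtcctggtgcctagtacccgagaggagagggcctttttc
Col6a2: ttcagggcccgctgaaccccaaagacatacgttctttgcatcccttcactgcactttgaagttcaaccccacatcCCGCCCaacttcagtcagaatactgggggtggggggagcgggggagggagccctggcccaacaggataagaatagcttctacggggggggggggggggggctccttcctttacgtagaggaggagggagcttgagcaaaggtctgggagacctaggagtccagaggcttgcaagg
Col6a3: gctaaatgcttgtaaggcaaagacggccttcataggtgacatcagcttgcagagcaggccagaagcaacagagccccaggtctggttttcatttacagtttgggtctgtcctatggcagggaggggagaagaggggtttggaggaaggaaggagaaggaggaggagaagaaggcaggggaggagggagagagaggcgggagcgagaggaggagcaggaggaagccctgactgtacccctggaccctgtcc
Col7a1: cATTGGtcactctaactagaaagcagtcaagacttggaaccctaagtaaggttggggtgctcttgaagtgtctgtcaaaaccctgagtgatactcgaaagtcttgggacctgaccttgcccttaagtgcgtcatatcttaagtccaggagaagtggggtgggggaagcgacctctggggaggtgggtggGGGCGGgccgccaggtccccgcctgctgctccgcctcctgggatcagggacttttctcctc

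The Col3a1 stretch was AT-rich, with 35.2% G and C, and held a match to TATAAA. That match lay near the middle of the stretch, not close to the annotated start. Col6a2 held 1 GC box, Col7a1 a CCAAT box and a GC box, and Col6a3 none of the 6 motifs in these letters. The CCAAT match of Col7a1 lay at the end of its stretch furthest from the start. RefSeq gives Col6a2 another start further downstream, whose window (chr10:76623405-76623654) overlaps an exon and is not printed. That window held 3 GC box matches and 64.4% G and C. Col6a1 matched the AP-1 motif at 90 bases before its start, inside the bases left off, and it was the only match to this motif in the windows of collagen genes. RefSeq gave 36 windows for 33 of the 42 genes, and their median content of G and C was 59.4%, beside 52.4% over 32851 windows of all genes. A GC box was present in 58.3% of collagen windows and 32.7% of all windows, and a CCAAT box in 36.1% and 33.8%. A TATA box was found in 13.9% and 12.4%, an AP-1 match in 2.78% and 6.75%, an interferon gamma activated sequence in 2.78% and 7.02%, and a response element core in 0 of 36 collagen windows and 2.98% of all windows. A match in letters is a description and does not show that a factor binds.

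Levels of different chains were compared in the authors' FPKM, a fragment count divided by gene length and library size. Col3a1, the chain of type III collagen, was the most abundant, at 88.7, 96.0 and 79.2 FPKM in the shControl libraries and 123.6, 126.4 and 111 FPKM in the shACSL4 libraries. In shControl it was followed by Col6a3 (41.7 ± 2.11 FPKM, SD, n = 3), Col16a1 (35.9 ± 2.83), Col6a1 (30.5 ± 1.95), Col5a1 (25.7 ± 1.47), Col4a1 (23.6 ± 1.6) and Col4a2 (17.5 ± 0.222). The ranges of Col5a1 and Col4a1 overlapped across libraries, although Col5a1 was above Col4a1 within each of the 6, and with the longest coding transcript as length their ranks turned to 6 and 5. These 7 chains made up 89 to 91.1% of the summed FPKM of all collagens in each library. The genes of type I collagen, the main fibrillar collagen of connective tissue, were near the detection limit: Col1a1 had 4 to 19 counts and Col1a2 had 6 to 29 counts in any library.

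In shACSL4 the order below Col3a1 changed. Col6a1 came next at 45.4 ± 2.03 FPKM, and Col16a1 (34 ± 1.85) and Col6a3 (32.1 ± 0.403) overlapped. Col7a1 went from 11.8 ± 1.61 FPKM, above Col8a1 (7.51 ± 0.94) and Col5a2 (6.19 ± 0.306), to 3.25 ± 0.397 FPKM, below Col5a2 (9.71 ± 0.132), Col8a1 (7.46 ± 0.246) and Col6a2 (5.29 ± 0.158). The length behind the FPKM matched the summed exons of the gene in another annotation release (GENCODE M21) to within 0.1% for 10 of 11 collagens with at least 1000 counts in a library. With the longest coding transcript as length, chosen after the data were seen, Col3a1 stood at 155 and 212 FPKM in the group means. Over all libraries Col16a1 instead of Col6a1 then ranked next to it, and Col6a3 ranked 3 with either length. The summed FPKM of all 42 genes was 280 to 309 in shControl and 311 to 338 in shACSL4, without overlap, whereas the summed CPM overlapped (2438 to 2683 and 2613 to 2843).

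**Figure D1:**
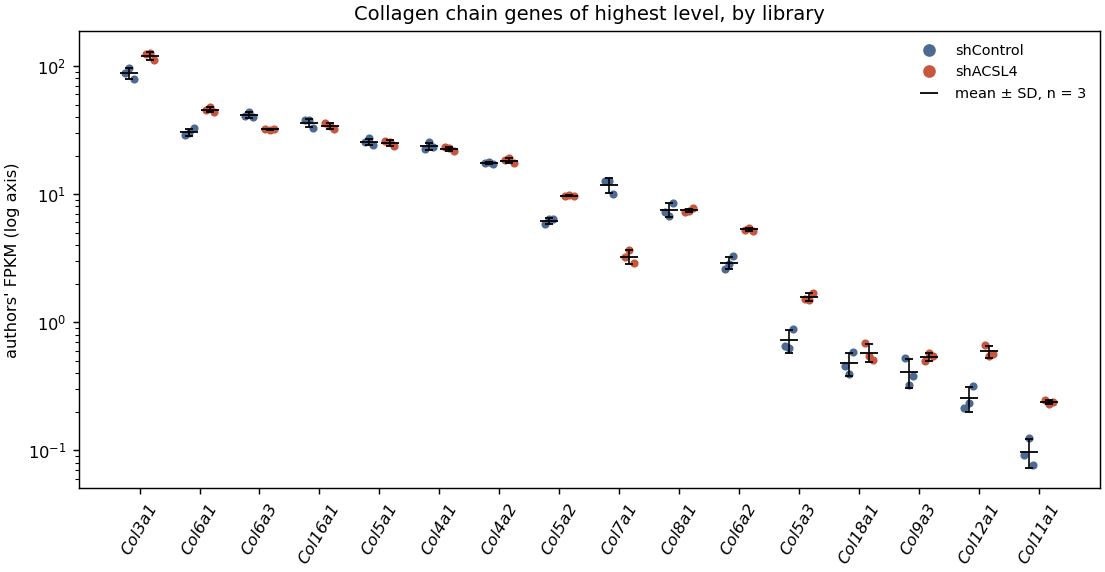
Authors' FPKM (log axis) of the 16 collagen genes of highest mean level, in 3 shControl and 3 shACSL4 libraries; points are libraries and bars are the mean ± SD. Col3a1 was highest in every library, and Col7a1 lay at 9.93 to 12.8 FPKM in shControl and 2.88 to 3.67 FPKM in shACSL4.

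Among the 11 fibrillar genes, 9 were tested, 4 rose and 0 fell at adjusted p under 0.05 with edgeR (0 with DESeq2, and Col27a1 with limma-voom), and 5 had an unadjusted p under 0.05. Their median log2 fold change was 0.44, and their summed FPKM was 111 to 131 in shControl and 147 to 164 in shACSL4. Col3a1 (ENSMUSG00000026043, chr1:45350698-45388866) was at 865, 943 and 792 CPM in the shControl libraries and at 1205, 1242 and 1086 CPM in the shACSL4 libraries. All shACSL4 libraries lay above all controls, a rise of 1.36-fold (0.44 on the log2 scale with SE 0.0713, adjusted p = 0.000579). Its share of summed collagen FPKM was 29.9 ± 1.45% in shControl and 36.7 ± 0.912% in shACSL4.

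Type V collagen nucleates the fibrils of type I and type III and limits their width, and its genes did not move alike. Col5a1 (chr2:27776437-27929526), whose chain is common to the main forms of type V, was at 216, 233 and 212 CPM in shControl and 222, 217 and 203 CPM in shACSL4. The groups overlapped, and the change did not pass the test (-0.04 on the log2 scale with SE 0.0583, adjusted p = 0.615). Col5a2 (chr1:45413481-45542442), the usual partner of Col5a1, went from 55.6, 60.9 and 62.5 CPM to 92, 94.6 and 91.8 CPM, a rise of 1.56-fold with no overlap (0.64 on the log2 scale with SE 0.0594, adjusted p = 7.63e-06). Col5a3 (chr9:20681346-20726363), the chain of a rarer form, went from 4.37, 4.26 and 6.17 CPM to 10.3, 10.1 and 11.5 CPM. That was a rise of 2.16-fold with shControl 3 the highest control (1.11 on the log2 scale with SE 0.151, adjusted p = 0.00016). Col5a2 lies 24.6 kb from Col3a1 on chromosome 1, tail to tail and with no listed gene between them, and both rose.

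Type XI is the fibrillar collagen of cartilage that mixes with type V chains in other tissues. Col11a1 (chr3:113824189-114014367) had 49, 65 and 41 counts in shControl and 130, 126 and 142 counts in shACSL4, which is 1.25 ± 0.308 and 3.03 ± 0.103 CPM without overlap (1.27 on the log2 scale with SE 0.221, adjusted p = 0.000953). Col11a2, its partner chain, had 13 to 33 and 30 to 39 counts and did not pass the test (adjusted p = 0.469). Col27a1, a fibrillar chain of cartilage, had 50, 42 and 42 counts in shControl and 14, 29 and 31 in shACSL4. Every shACSL4 library lay below every control, but the difference missed the threshold (-0.94 on the log2 scale with SE 0.35, adjusted p = 0.0605; 0.0499 with limma-voom). Col1a1 (adjusted p = 0.972) and Col1a2 (adjusted p = 0.232) did not pass, and Col2a1 and Col24a1 had too few counts to test.

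Type VI collagen is built from a trimer of an alpha 1, an alpha 2 and an alpha 3 chain, and the alpha 3 gene fell while the other chains rose. Col6a1 (ENSMUSG00000001119, chr10:76544626-76562002) was at 125, 132 and 145 CPM in the shControl libraries and at 197, 208 and 189 CPM in the shACSL4 libraries. It rose 1.48-fold without overlap (0.56 on the log2 scale with SE 0.0643, adjusted p = 3.91e-05). Col6a2 (ENSMUSG00000020241, chr10:76431596-76459464) was at 21.6, 23.6 and 27.6 CPM and at 43.2, 45.6 and 43.0 CPM. It rose 1.81-fold without overlap (0.85 on the log2 scale with SE 0.0873, adjusted p = 1.58e-05), and shControl 3 was the highest control for both genes. Col6a1 and Col6a2 lie on the same strand of chromosome 10, 85.2 kb apart. Col6a3 (ENSMUSG00000048126, chr1:90693645-90771693), the largest of these chains, was at 488, 528 and 487 CPM in shControl and 384, 378 and 384 CPM in shACSL4. It fell to 0.763 of the control level without overlap (-0.39 on the log2 scale with SE 0.053, adjusted p = 0.00016).

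Col6a4, the other tested gene of this group, had 1 to 14 counts per library and did not pass (adjusted p = 0.796), and Col6a6 had 2 to 6 counts and was not tested. The median over the 4 tested microfibrillar genes was 0.42 on the log2 scale (0.16 without shControl 2, 0.66 without shControl 3). Col6a4, with few counts, went from 0.28 to -0.23 and 0.70 in these fits. Over the alternative fits Col6a1 stayed at 0.51 to 0.63, Col6a2 at 0.78 to 0.96 and Col6a3 at -0.41 to -0.35. Their summed FPKM was 72.4 to 77.0 in shControl and 80.9 to 84.6 in shACSL4, whereas the summed CPM, which weights the long Col6a3 transcript more, was 635 to 683 and 617 to 632.

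The count ratio of chains within a library does not depend on library size, and 6 such ratios were compared between groups. The ratio of Col6a3 to Col6a1 was 3.9, 4 and 3.35 in the shControl libraries and 1.95, 1.82 and 2.03 in the shACSL4 libraries, a difference of -0.95 on the log2 scale. The ratio of Col6a3 to Col6a2 was 17.6 to 22.5 and 8.29 to 8.93 (difference of -1.25), and that of Col6a1 to Col6a2 was 5.26 to 5.78 and 4.4 to 4.57 (difference of -0.30). Both rising chains thus gained on Col6a3, and Col6a2 gained on Col6a1. The ratio of Col5a1 to Col5a2 was 3.4 to 3.88 and 2.21 to 2.41 (difference of -0.68), and that of Col5a3 to Col5a1 was 0.0182 to 0.0291 and 0.0464 to 0.0569 (difference of 1.17). The ratio of Col4a1 to Col4a2 was 1.45 to 1.62 and 1.35 to 1.43 (difference of -0.13). The groups did not overlap for any of the 6 ratios. Each gave p = 0.1 in the two-sided exact permutation test, the smallest that 3 against 3 libraries allow, and p = 0.1 after Benjamini-Hochberg adjustment over the 6. The ratios with Col6a3 and Col5a3 were added after their values were seen. Those with Col6a3 had to separate, because its shACSL4 libraries lay below all controls while those of Col6a1 and Col6a2 lay above. They are therefore no further support. The ratios of Col5a1 to Col5a2 and of Col5a3 to Col5a1 also had to separate, given the ranges of the single genes, and add none either. The ranges of the single genes did not fix the separation for Col6a1 to Col6a2 or Col4a1 to Col4a2. The difference for Col6a1 to Col6a2 is set by those of the ratios with Col6a3, so it is not independent of them. Ratios of Col1a1 to Col1a2, Col4a3 to Col4a4 and Col4a5 to Col4a6 were planned but had too few counts.

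Per length, the authors' FPKM put Col6a3 at 1.37 times Col6a1 in shControl and 0.706 times in shACSL4. Col6a1 stood at 10.5 and 8.57 times Col6a2 in FPKM, but at 6.26 and 5.12 times with the longest coding transcript as length. The stated excess of Col6a1 over Col6a2 therefore depends on the length used, while the change between groups does not.

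**Figure D2:**
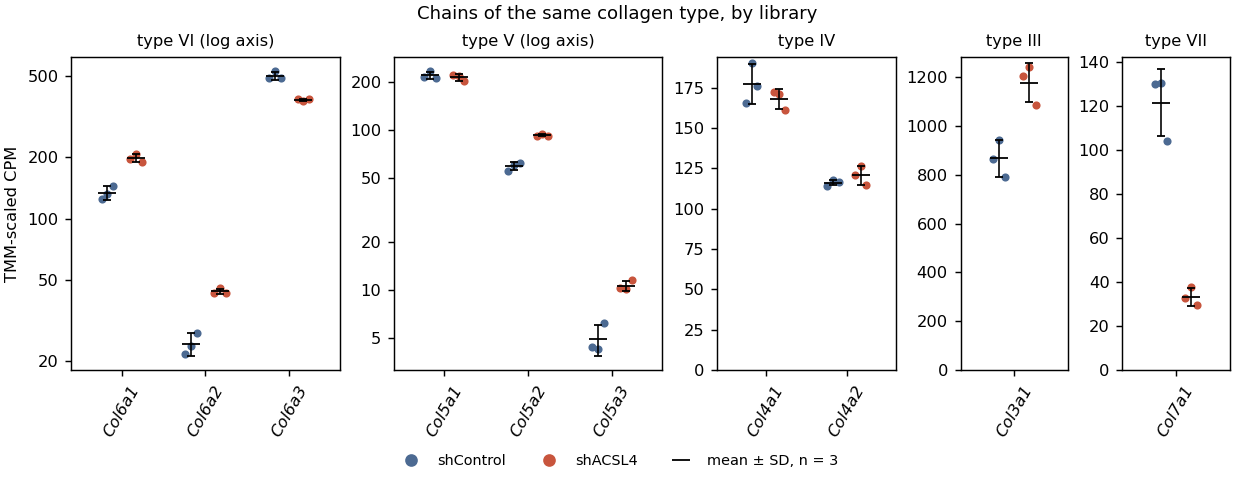
TMM-scaled CPM in each library for chains of types VI, V, IV, III and VII (types VI and V on a log axis); points are libraries and bars are the mean ± SD over 3. Col6a1 and Col6a2 lay higher and Col6a3 lower in shACSL4, Col5a1, Col4a1 and Col4a2 overlapped between groups, and Col7a1 went from 122 to 33.3 CPM.

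The basement membrane genes gave no called member among 3 tested of 6, with edgeR, DESeq2 or limma-voom, and 0 had an unadjusted p under 0.05 with edgeR. Col4a1 and Col4a2 encode the chains of the common type IV trimer, and their genes lie head to head on chromosome 8. In the deposited coordinates Col4a1 (chr8:11248423-11362826) and Col4a2 (chr8:11362805-11499287) overlap by 22 bases at their starts. Col4a1 was at 166, 190 and 176 CPM in shControl and 172, 171 and 161 CPM in shACSL4 (-0.08 on the log2 scale with SE 0.0607, adjusted p = 0.382). Col4a2 was at 114, 117 and 117 CPM and at 121, 126 and 115 CPM (0.05 on the log2 scale with SE 0.0541, adjusted p = 0.485). Both overlapped between the groups, and their summed level with the other type IV genes was 39.7 to 43.2 FPKM in shControl and 39.1 to 42.0 FPKM in shACSL4.

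The other type IV genes encode chains of specialised membranes, such as the glomerular filter of the kidney, and were close to 0. Col4a4 had 4 to 26 counts per library and did not pass (adjusted p = 0.454). Col4a3, which starts 71 bases from Col4a4 on the opposite strand, had 0, 0 and 18 counts in shControl and 3, 14 and 7 in shACSL4. Col4a5 had at most 10 counts in a library, and Col4a6 had 2, 0 and 3 counts in shControl and 0 in each shACSL4 library. A count of 0 allows up to 3 counts in a library, or 0.0637 to 0.0733 CPM, which covers counting error only.

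**Figure D3:**
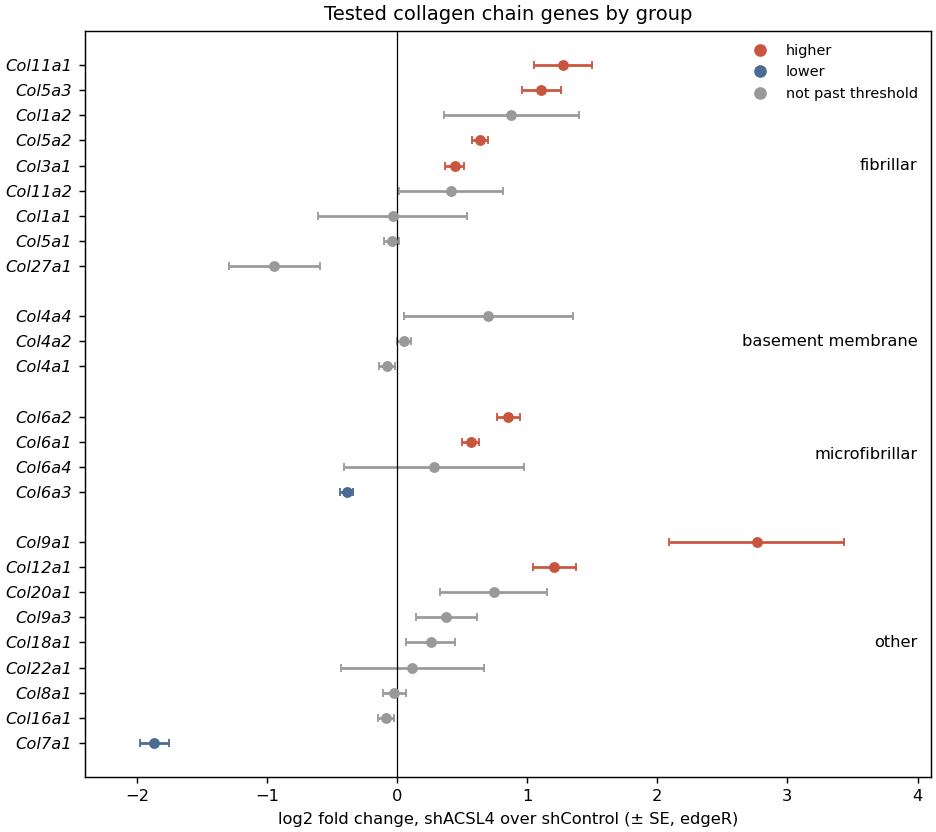
Log2 fold change of shACSL4 over shControl (± SE, edgeR) for the 25 tested collagen genes, ordered within each group; colours give the call at adjusted p under 0.05. Col7a1 lies far to the left at -1.87, and the 3 tested basement membrane genes did not pass the threshold.

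Col7a1 had the largest fall of any tested collagen. Type VII collagen forms the fibrils that anchor the epidermal basement membrane to the dermis, and its loss causes skin blistering in humans and mice. Col7a1 (ENSMUSG00000025650, chr9:108782654-108813943) had 5485, 5345 and 4297 counts in the shControl libraries and 1353, 1622 and 1397 in the shACSL4 libraries. In scaled units these were 130.3, 130.8 and 104 CPM and 32.7, 37.8 and 29.5 CPM. Every shACSL4 library was far below the lowest control, shControl 3, and the level fell to 0.274 of the control (-1.87 on the log2 scale with SE 0.111, adjusted p = 2.25e-06). At adjusted p under 0.05 and an absolute log2 fold change of at least 1, 5.87% of tested genes were called, and 5 collagens were: Col7a1 downwards, and Col5a3, Col9a1, Col11a1 and Col12a1 upwards. Among the 5, Col9a1 entered the test only because it was higher in shACSL4.

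Of 8 fibril-associated collagen genes, 6 were tested, 2 rose and 0 fell with edgeR, DESeq2 and limma-voom, and the same 2 had an unadjusted p under 0.05. That share of 33.3% was near the 29.1% of all tested genes. Col12a1 (chr9:79506273-79626113), whose chain binds the surface of fibrils in tendon and other stretched tissue, had 135, 145 and 203 counts in shControl and 417, 355 and 407 in shACSL4. Its level rose 2.31-fold without overlap, with means of 3.89 ± 0.905 and 8.98 ± 0.955 CPM (1.21 on the log2 scale with SE 0.165, adjusted p = 0.000166). Col9a1 (chr1:24216691-24291765), a chain of the cartilage collagen type IX, had 4, 4 and 0 counts in shControl and 15, 20 and 25 in shACSL4 (2.76 on the log2 scale with SE 0.674, adjusted p = 0.00837). Col9a1 reached the expression filter in shACSL4 libraries alone, so it entered the test only because it was higher there. Its partner chains did not follow at a detectable level: Col9a3 was at 51 to 85 and 79 to 98 counts (adjusted p = 0.259), and Col9a2 had 0 to 4 counts.

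Col16a1 (chr4:129941633-129993076), a chain of small fibril-associated assemblies, was among the most abundant collagens and overlapped between groups. It was at 252, 254 and 225 CPM in shControl and at 240, 232 and 216 CPM in shACSL4 (-0.09 on the log2 scale with SE 0.0631, adjusted p = 0.322). Without shControl 3 it passed the threshold as lower (log2 fold change -0.14, adjusted p = 0.0401). Col20a1 (adjusted p = 0.2) and Col22a1 (adjusted p = 0.896) did not pass, and Col14a1 was not tested.

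Col8a1, a network-forming chain of vessel walls and of the cornea, was at 56.4, 52.7 and 68.2 CPM in shControl and 56.6, 57.7 and 60.4 CPM in shACSL4 (adjusted p = 0.878). Col18a1, whose C-terminal fragment is endostatin, had 114 to 173 counts in shControl and 164 to 197 in shACSL4 (adjusted p = 0.342). The network chains Col8a2 and Col10a1, the multiplexin Col15a1, the transmembrane chains Col13a1, Col17a1, Col23a1 and Col25a1, and Col26a1 and Col28a1 had too few counts to test. The 17 untested collagens had totals of 3 to 42 counts over the 6 libraries and at most 18 counts in any library. Differences among them were not detectable at this depth.

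The 10 called collagens passed at adjusted p under 0.05 with each of the 6 libraries left out in turn, with DESeq2, with limma-voom and with the other scalings. A stricter count filter removed Col9a1 before the test. The authors' deposited table, which uses their own test on the same libraries, also called these 10, 8 higher and 2 lower. That was 23.8% of the 42 collagens, where it called 17.9% of all 22386 listed genes.

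Genes that make, process, bind or degrade collagen were read from 8 lists of 88 genes, of which 85 were in the table and 68 were tested. Of these 19 rose and 12 fell, 45.6% of those tested beside 29.1% of all tested genes, with a median of -0.0034 on the log2 scale. By list the share called was 29.4% for modification and folding, 40% for export and 50% each for processing and crosslinking. It was 76.9% for fibril-associated matrix, 71.4% for receptors, 25% for breakdown and 20% for basement membrane partners. The 76.9% and the 45.6% include Prelp and Fmod, which entered the test only because they were higher in shACSL4. Over all tested genes, 209 reached the filter in 1 group alone. The lists held 4 to 17 tested genes, and no difference from the share over all genes was tested.

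Collagen modification and folding had 1 of 17 tested genes higher and 4 lower, with a median of -0.06, and its share of called genes (29.4%) was near the 29.1% of all tested genes. Serpinh1, the chaperone gene of the collagen helix, fell by 0.22 on the log2 scale, from 510.3 ± 22.4 to 439 ± 16.9 CPM (adjusted p = 0.0103). P3h2, a prolyl 3-hydroxylase gene, fell by 0.50, the lysyl hydroxylase gene Plod2 by 0.17 and P3h4, which encodes a partner of lysyl hydroxylation, by 0.15 (adjusted p = 0.028, 0.0412 and 0.0476). P3h4 did not pass with library size alone, DESeq2, no filter, the stricter filter or protein-coding genes alone (adjusted p of 0.0568 to 0.0697), nor Plod2 with library size alone or the stricter filter (0.0506 and 0.0547). Colgalt1, which adds galactose to hydroxylysine, rose by 0.16 (adjusted p = 0.0435). The subunits of prolyl 4-hydroxylase, P4ha1, P4ha2 and P4hb, did not pass, with P4hb at 1149 ± 55.5 and 1157 ± 26.6 CPM.

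Export of procollagen from the endoplasmic reticulum had 1 of 10 tested genes higher and 3 lower, with a median of -0.14. Klhl12, a ubiquitin ligase adaptor for large COPII carriers, fell by 0.47 from 45.3 ± 5.71 to 32.7 ± 1.11 CPM (adjusted p = 0.0015). The coat genes Sec23a and Sec13 fell by 0.27 and 0.31 (adjusted p = 0.00559 and 0.0212). Creb3l2, a transcription factor gene of secretory capacity, rose by 0.25 (adjusted p = 0.00446), and Mia3, which encodes the cargo receptor TANGO1, was at 238 ± 16.1 and 239 ± 2.07 CPM (adjusted p = 0.923).

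Procollagen processing had 1 of 4 tested genes higher and 1 lower, with a median of -0.03. Pcolce, which encodes an enhancer of C-propeptide removal, was at 227 ± 20.5 CPM in shControl and 470.3 ± 20.3 CPM in shACSL4, 2.07-fold higher (1.05 on the log2 scale with SE 0.0678, adjusted p = 3.85e-07). Bmp1, the proteinase that Pcolce enhances, fell by 0.18 (adjusted p = 0.0304). Crosslinking had 2 of 4 tested genes higher and 0 lower with edgeR, DESeq2 and limma-voom, and 2 had an unadjusted p under 0.05. Loxl4, a lysyl oxidase gene, went up from 5.49 ± 0.964 to 10.3 ± 1.53 CPM (adjusted p = 0.000747). Tgm2, a transglutaminase gene, went from 4.22 ± 0.728 to 6.35 ± 1.47 CPM (adjusted p = 0.0292). Lox, Loxl1 and Loxl2 had too few counts to test, and Pxdn, the peroxidase that crosslinks type IV collagen, was at 382 ± 13 and 368 ± 4.83 CPM (adjusted p = 0.467).

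Of 13 tested genes of fibril-associated matrix 6 rose and 4 fell, with a median of 0.12. The small leucine-rich proteoglycan genes, which bind collagen fibrils, went both ways. Ogn was at 1.71 ± 0.632 CPM in shControl and 16 ± 2.58 CPM in shACSL4 (3.22 on the log2 scale with SE 0.234, adjusted p = 5.89e-06). Prelp went from 0.0804 ± 0.0369 to 1.62 ± 0.353 CPM and Fmod from 0.0489 ± 0.0848 to 2.35 ± 0.372 CPM (adjusted p = 1.56e-05 and 4.71e-05), and both reached the filter in shACSL4 alone. Tnxb, which encodes tenascin-X, rose by 0.76 (adjusted p = 0.000256), whereas Postn, the periostin gene, fell from 0.724 ± 0.0542 to 0.116 ± 0.112 CPM (adjusted p = 0.00427). Sparc and Thbs1 were the other rises, and Dcn, Fn1 and Bgn the other falls, named after their values were seen. Among basement membrane partners only Agrn, of 5 tested, passed (0.31 higher, adjusted p = 0.0406), and Hspg2, which encodes perlecan, was at 418 ± 27.1 and 450.3 ± 16.4 CPM (adjusted p = 0.209). With edgeR, DESeq2 and limma-voom 0 were lower, and 1 of the 5 had an unadjusted p under 0.05.

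Collagen receptors had 5 of 7 tested genes higher and 0 lower at adjusted p under 0.05 with edgeR and limma-voom (1 lower with DESeq2, Itgb1), with a median of 0.35 and 6 at an unadjusted p under 0.05. Mrc2, an endocytic receptor for collagen, rose 1.77-fold from 96.5 ± 2.21 to 170.3 ± 4.75 CPM (adjusted p = 3.43e-07). Itga1 and Itga2, which pair with the beta 1 integrin to bind collagen, rose by 1.09 and 0.97 (adjusted p = 8.23e-06 and 0.0116). The discoidin domain receptor genes Ddr1 and Ddr2, tyrosine kinases that bind collagen, rose by 0.35 and 0.27 (adjusted p = 0.00474 and 0.00383). Itgb1, the shared beta chain, was at 861 ± 19.1 and 787 ± 9.22 CPM (adjusted p = 0.067). Among genes of collagen breakdown 2 of 8 tested rose and 0 fell with edgeR, DESeq2 and limma-voom, with a median of 0.08 and 4 at an unadjusted p under 0.05. Their share of called genes (25%) was below the 29.1% of all tested genes. Mmp14, the membrane collagenase gene, went from 322 ± 18.4 to 461 ± 12.8 CPM (adjusted p = 2.69e-05). Mmp9, a gelatinase gene, went from 5.01 ± 0.712 to 10.7 ± 1.28 CPM (adjusted p = 0.000103), while Mmp2 was at 24.3 ± 2.77 and 24 ± 2.11 CPM (adjusted p = 0.921).

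**Figure D4:**
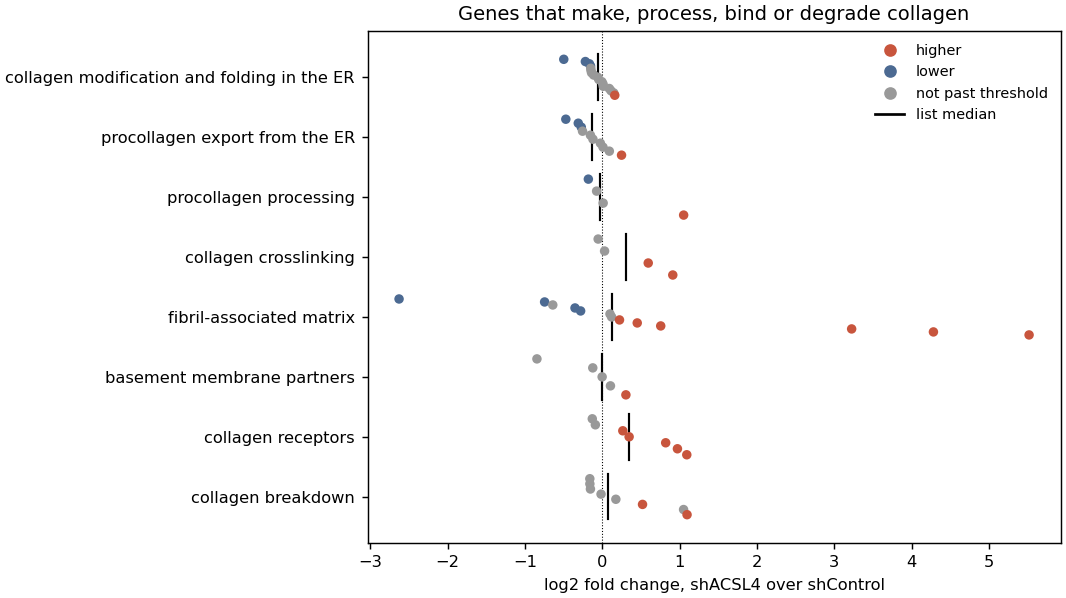
Log2 fold change of shACSL4 over shControl for the 68 tested genes in 8 lists of collagen-handling genes; each point is a gene, colours give the call at adjusted p under 0.05 and black lines are list medians. Medians lie at 0.35 for receptors and -0.14 for export from the endoplasmic reticulum.

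Of the 31 calls among these genes, 14 ended in at least 1 of the 6 fits with a library left out, with log2 changes in the full comparison from -0.75 for Bgn to 0.59 for Tgm2. Without shControl 1, 11 calls ended (Tgm2, Thbs1, Agrn, Sparc, Colgalt1, P3h4, Plod2, Bmp1, Sec13, Dcn and P3h2, adjusted p of 0.0646 to 0.142), with 14 higher and 7 lower. Without shControl 2, 10 ended (Thbs1, Agrn, Colgalt1, P3h4, Plod2, Bmp1, Serpinh1, Sec13, Dcn and Bgn, 0.0568 to 0.156), with 16 higher and 5 lower. Without shControl 3, Agrn, Dcn and Bgn ended (0.0824 to 0.304) and Hspg2 passed as higher and Itgb1, P3h1, Ppib, Sar1a, Ctsl and Sar1b as lower, with 19 higher and 16 lower. Without shACSL4 1, 11 ended (Thbs1, Agrn, Colgalt1, P3h4, Plod2, Bmp1, Serpinh1, Fn1, Dcn, P3h2 and Bgn, 0.0604 to 0.153), with 17 higher and 4 lower. Without shACSL4 2, Tgm2, Sparc, P3h4, Fn1, P3h2 and Bgn ended (0.0531 to 0.117), with 17 higher and 8 lower. Without shACSL4 3, 11 ended (Tgm2, Thbs1, Agrn, Colgalt1, P3h4, Plod2, Bmp1, Serpinh1, Sec13, Dcn and Bgn, 0.0611 to 0.201), with 15 higher and 6 lower.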

How the data were processed

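Per the labels' protocols, ribosomal RNA was removed from total RNA and fragments were copied from random primers. CASAVA, HISAT2 and DESeq2 and the GRCm39 build are named in the submitters' processing notes. The read counter, annotation release, strandedness and tool versions are not given in the sources used here. Without known strandedness, reads of Col4a1, Col4a2, Col5a1, Col18a1 and Col9a3 cannot be assigned with certainty where listed genes of the opposite strand overlap them (Col4a1 with Col4a2 and Gm15418, Col4a2 with Col4a1 and Gm15419). Col20a1 overlaps a listed gene of its own strand. The deposited table holds raw counts per gene, FPKM values made by the authors, and the authors' log2 fold changes and p-values, per the file headers.

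Counts were analysed in R 4.3.3 with edgeR 4.0.16 (glmQLFit with robust fitting, 1 term for group, TMM scaling, two-sided test). Its expression filter was set to 10 counts per library and 15 in all, and p-values were adjusted by Benjamini-Hochberg over 14289 genes at a threshold of 0.05. An adjusted p without a named tool is from edgeR. SE is the absolute log2 fold change over the root of F, and levels are means ± SD over 3 libraries. The workflow was tested on simulated counts.

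Named genes were the called collagens with their partner chains, the 8 collagens of highest FPKM, and up to 5 called genes of each list by adjusted p. Genes named from the lists that did not pass, and Col27a1, were chosen after their values were seen. The members, lists and tests were chosen with earlier results of these data known.

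Alternatives were DESeq2's size factors, library size alone, DESeq2 1.42.0, limma-voom (limma 3.58.1), a run without filter, a filter of 1 CPM in 3 libraries with 60 counts in all, protein-coding genes alone, a replicate block, a log2 fold threshold of 1, and each library left out.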

Additional observations from a re-analysis of the deposited data

How the results depend on the processing

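The median log2 fold change of fibrillar genes (0.44) was 0.48 with limma-voom and 0.65 with the stricter filter, and of microfibrillar genes (0.42) 0.61 with limma-voom, 0.28 with no filter and 0.58 with the stricter filter. Basement membrane genes (0.05) had 0.19 with no filter, and the other collagens (0.26) 0.69 with no filter and 0.13 with the stricter filter; the filter sets which low genes enter a median, and the cause of the difference with limma-voom was not tested. At a fold change of at least 1 on the log2 scale, 839 genes changed (706 higher, 133 lower), with 4 collagens higher and 1 lower, and 6 collagen-handling genes higher and 1 lower. With each library left out, all genes changed numbered 2944 to 5477 (1666 to 2818 higher, 1252 to 2659 lower), and 8 collagens were higher in each case and 2 to 3 lower. Collagen-handling genes numbered 14 to 19 higher and 4 to 16 lower. The medians ranged from 0.12 to 0.54 over all tested collagens, -0.042 to 0.277 for basement membrane and 0.40 to 0.61 for fibrillar collagens. They were 0.16 to 0.66 for microfibrillar and 0.13 (without shControl 2) to 0.58 (without shControl 1) for other collagens. Basement membrane was lowest without shControl 1 and highest without shACSL4 3. Col4a3, untested in the full comparison, entered those fits at -0.26 and 0.46. In them Col4a1 was at -0.12 and -0.042, Col4a2 at 0.040 and 0.092 and Col4a4 at 0.39 and 0.96. Without shControl 3 the count of changed genes was highest. The log2 ratio differences kept their signs (Col6a3/Col6a1 from -1.03 to -0.91). No named gene, by the rule given above, changed sign under an alternative where it was called in either fit. Some collagens without a call did change sign, such as Col1a1 (-0.42 to 0.65 on the log2 scale) and Col8a1 (-0.099 to 0.097). With the replicate number as a block, 10 of the 10 called collagens were also called (8 higher, 2 lower). Deviations from the group mean had r of 0.143, 0.0647 and 0.243 between same-numbered libraries. Between libraries of different number r was -0.258 to 0.183, the highest for shACSL4 1 with shControl 2. Whether same-numbered libraries form pairs was not tested. With the block, 5163 genes changed in all, and 19 collagen-handling genes were higher and 17 lower, with Agrn (adjusted p = 0.144) and Dcn no longer called. With no filter Agrn (0.0518), P3h4 and Dcn were not called. Genes with few counts were limited by depth, and 17 collagens were not tested for that reason.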
